A study of Mus musculus with 4 samples.

Results

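Open chromatin was examined at the genes of 8 receptors of the tumor necrosis factor (TNF) receptor superfamily: Tnfrsf4 (OX40), Tnfrsf18 (GITR), Tnfrsf9 (4-1BB), Tnfrsf1b (TNFR2), Tnfrsf8 (CD30), Tnfrsf25 (DR3), Cd27 and Fas. Peaks from the 4 libraries were joined into regions wherever they shared at least 1 base, and every region that touched a RefSeq gene record of mm10 or the 20 kb on either side of it was kept. This gave 91 of the 93679 regions of the whole series, of which 77 lay in the window of a single gene and 14 in the windows of neighboring receptors. Of the 8 genes, 6 are on chromosome 4, Cd27 is on chromosome 6 and Fas is on chromosome 19.

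Receptors of this superfamily bind trimeric ligands of the TNF family. Most of those studied here (OX40, GITR, 4-1BB, TNFR2, CD30 and CD27) recruit TRAF adaptors and act as costimulatory receptors that pass on NF-κB and survival signals, whereas Fas and DR3 carry a death domain in the cytoplasm. Regulatory T cells (Tregs) are known for high surface levels of GITR, OX40 and TNFR2, and 4-1BB and CD30 appear on T cells after activation. Because RNA and protein of these genes were not analysed here, the values below describe chromatin, not receptor levels.

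ATAC-seq, in which a transposase inserts adapters into DNA that nucleosomes leave exposed, was performed on 50000 cells per reaction. The cells were splenic CD4+ T cells sorted as naive (high CD62L, low CD44, no CD25) from WT male C57BL/6 mice aged 7 weeks. All 4 libraries shared 48 h of activation with antibodies to CD3 at 5 µg/ml and to CD28 at 1 µg/ml, together with 10 ng/ml of IL-2 and 5 ng/ml of TGF-β1. The iTreg+PBS group (n = 2) received PBS and the iTreg+IL-4 group (n = 2) received 15 ng/ml of IL-4, the cytokine of type 2 helper T cells that signals through STAT6. The samples are described as biologically independent and pooled, the number of animals in each pool is not given in the sources used here, and cultured cells of this kind are an in vitro model that can hold activated cells that did not become Tregs.

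The lists held 77064 and 56645 peaks in iTreg+PBS replicates 1 and 2, and 78670 and 67743 peaks in iTreg+IL-4 replicates 1 and 2. They contain no read counts, so depth is unknown, and a missing peak means only that the caller found none in that library. Start sites of all 9 T cell marker genes examined carried a peak in every library. Of the markers of other cells, none of 5 B cell and none of 3 NK cell genes did so in every library, against 2 of 6 myeloid genes (Cd14 and Cd68) and 1 of 2 CD8 T cell genes (Cd8b1). The part of such cells in the values below was not tested. To set peaks of unequal lists side by side, each was given a standing: the percentage of peaks in its own list with a higher −log10 q (the deposited measure of how sure the call is), so that 0% is the strongest peak. Since each condition has 2 libraries, an exact two-sided permutation test cannot give a p below 0.333, and no comparison between conditions could pass a threshold by that test.

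At every one of the 8 receptor genes, a peak lay at a start site in all 4 libraries, within 1 kb upstream to 500 bases downstream of a RefSeq transcript start. The same held for 58.2% of 21774 protein-coding genes. The windows were rich in peaks, with a median of 11 regions per gene against 5 for all protein-coding genes and a median of 2.29 against 0.676 regions per 10 kb. In 7 of the 8 windows the density was above the upper quartile of all protein-coding genes, 1.15 regions per 10 kb, and Fas, at 1.04, was the exception. Such numbers were not particular to these receptors. Windows of the T cell marker genes held 11 to 21 regions. The 15 signaling genes counted below had a median of 10, the 14 ligand genes 7.5 and the 17 other receptor genes 5. Of the 91 regions, 59 (64.8%) were called in all 4 libraries, against 51.0% of all regions. The share was 57.7% for the 71 regions away from any start site, against 43.8% of all such regions.

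**Figure D1:**
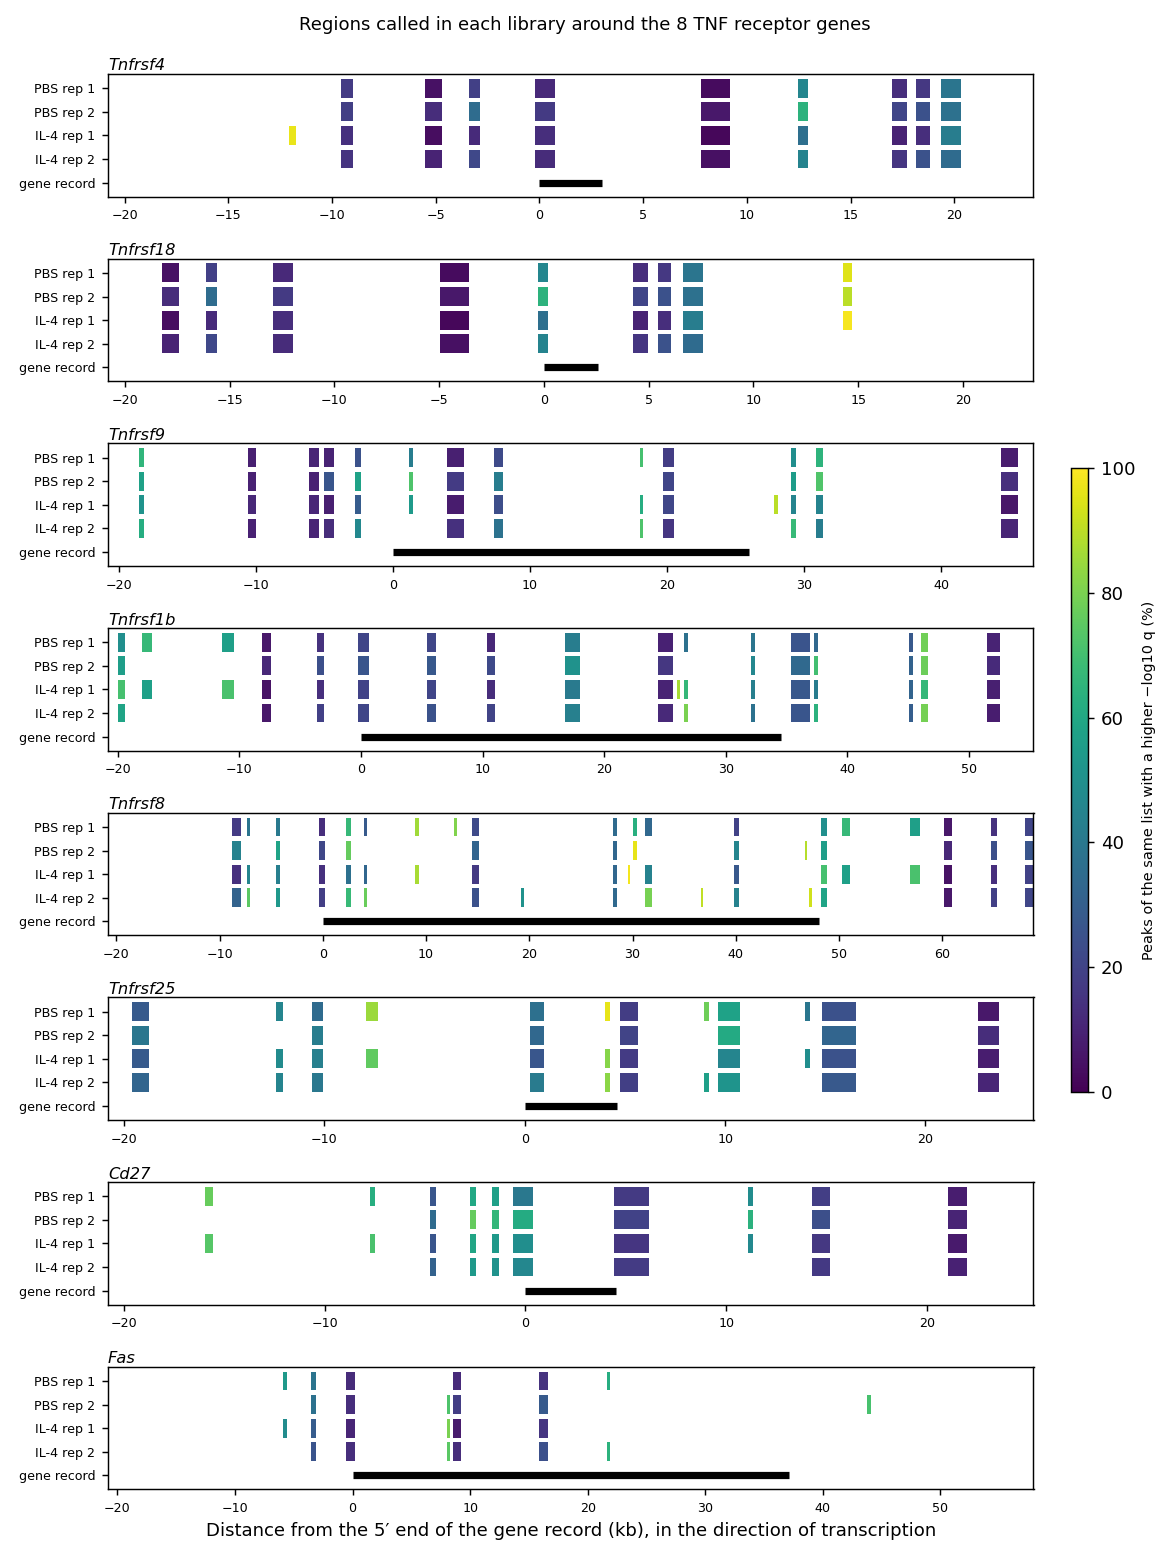
Regions called around each receptor gene. The horizontal axis gives the distance in kb from the 5′ end of the RefSeq gene record (black bar) along the direction of transcription, with a line of bars for each library and a bar spanning the whole joined region where that library had a peak in it; the color gives its standing (0%, dark, is the strongest peak of the list). The bars of the 59 shared regions line up across all 4 libraries, and the line of iTreg+PBS replicate 2, with peaks in 66 of the 91 regions, has the most gaps.

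Regions missing from some libraries were mostly missing from the shorter lists. Of 11 regions called in 3 libraries, 7 lacked a peak only in iTreg+PBS replicate 2, the shortest list, 3 only in iTreg+IL-4 replicate 2 and 1 only in iTreg+PBS replicate 1. Of 11 regions called in 2 libraries, 8 were called in replicate 1 of both conditions, as were 55.4% of all regions called in 2 libraries. Regions called in all 4 libraries were wide and strong, with a median width of 678 bases and a median standing of 24.9% over their peaks. Those called in a single library had a median width of 239 bases and a median standing of 89.3%. Over all regions, 72.9% of those called in 3 libraries lacked a peak in iTreg+PBS replicate 2.

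No region near these receptors had a peak with IL-4 in both replicates and without IL-4 in neither, against 2.60% of all regions. A single region, 1 of 91, had the opposite pattern, with a peak in both iTreg+PBS libraries only, against 0.699% of all regions. It lay in an intron of Tnfrsf8, which encodes CD30, at chr4:145284751-145285088 and 30244 bases downstream of the start site. Its standing was 63.2% (−log10 q of 15.2) in iTreg+PBS replicate 1 and 96.3% (−log10 q of 2.60) in iTreg+PBS replicate 2, so its call in the second library was among the weakest of that list. A neighboring region, at chr4:145283322-145283936, was called in the 3 other libraries and not in iTreg+PBS replicate 2. Both counts depended on the libraries and the threshold. With each library left out in turn, 1 to 7 regions were called only with IL-4, the most without iTreg+PBS replicate 1. From 1 to 4 were called only without IL-4, the most without iTreg+IL-4 replicate 1. Leaving out a library loosens the rule, as 1 library then stands for its condition, so neither count could fall. The share over all regions was not taken under that looser rule, and nothing about the receptors is read from these counts. In the upper 50% of each list, 1 region was called only with IL-4 and 0 only without it.

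Order of the receptors by their start sites was alike in the 4 libraries. Taking the strongest region over a start site of each gene, Tnfrsf4, Fas and Tnfrsf9 held the first 3 places in every library, in changing order. They were followed by Tnfrsf8 in place 4, Tnfrsf1b in place 5 and Tnfrsf25 in place 6 in all 4 libraries, although the ranges of Tnfrsf8 and Tnfrsf1b over the libraries overlapped. By −log10 q, Cd27 and Tnfrsf18 were last. Cd27 stood above Tnfrsf18 in both iTreg+PBS libraries and below it in both iTreg+IL-4 libraries, an exchange of neighbors that was not tested. By height, the Tnfrsf18 region stood above those of Cd27 and Tnfrsf25 in every library, so the last places depended on the measure.

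**Figure D2:**
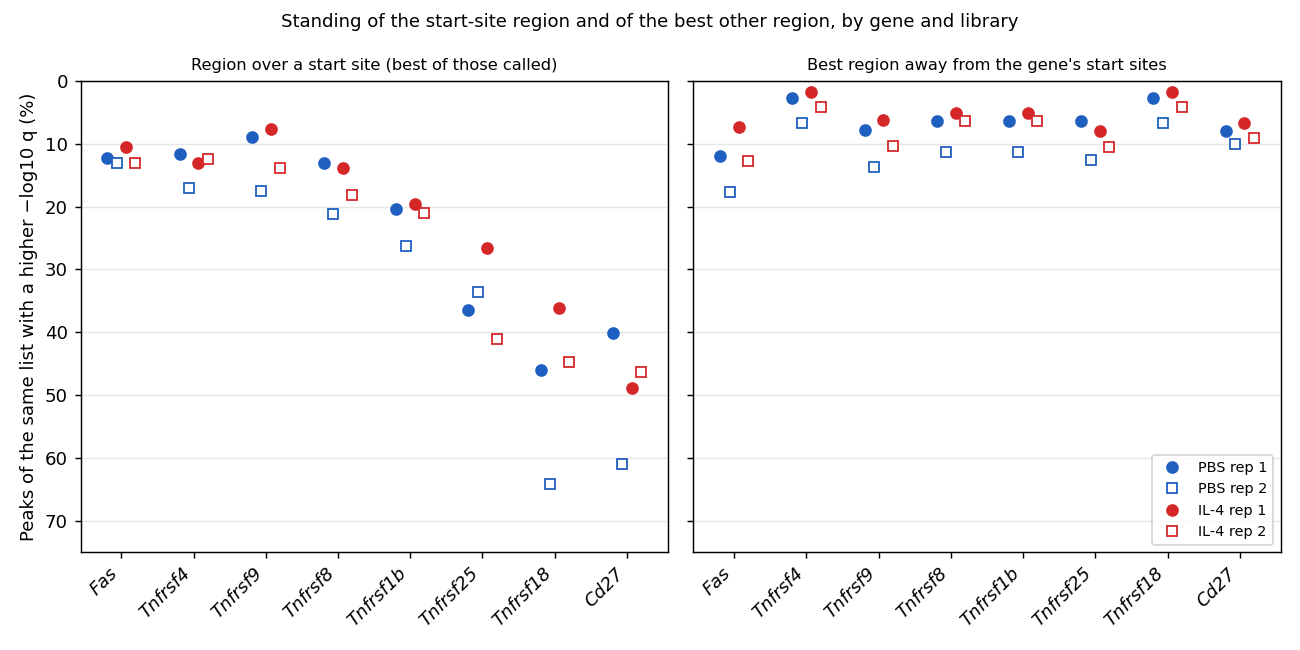
Standing of the strongest start-site region of each gene (left) and of its best region away from its own start sites (right). The vertical axis is the percentage of peaks in the same list with a higher −log10 q, with the strongest peaks at the top; blue points are iTreg+PBS, red points iTreg+IL-4, filled circles replicate 1 and open squares replicate 2. Start-site regions spread from 7.60% to 64.1%, whereas the best other regions all stood between 1.81% and 17.8%.

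For 7 of the 8 genes, the best region away from the gene's own start sites stood above its start-site region in all 4 libraries, and for Fas it did so in 3. Such was the case for 38.1% of 11310 protein-coding genes that had both kinds of region in all 4 libraries. The same region counted for both Tnfrsf4 and Tnfrsf18, and another for both Tnfrsf1b and Tnfrsf8, so the genes are not independent cases. These windows hold more regions than most, which gives more chances for a strong one, and the share was not compared at an equal number of regions.

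Tnfrsf4 and Tnfrsf18 encode OX40 and GITR, costimulatory receptors of activated T cells and Tregs. Their records lie 9708 bases apart on the forward strand of chromosome 4, at 156013595 to 156016613 and 156026322 to 156028894, so that 8 of the 11 regions in their windows belong to both. Of these 11 regions, 9 were called in all 4 libraries. The strongest region near any of the 8 receptors was among them, at chr4:156021366-156022762 between the genes, 1397 bases wide and 4258 bases upstream of the Tnfrsf18 start site. RefSeq places a noncoding exon of the lncRNA Gm16008 at its centre, and the start-site window of the small nuclear RNA gene Gm25982 touches it. It stood at 2.74% and 6.64% in iTreg+PBS replicates 1 and 2, and at 1.81% and 4.21% in iTreg+IL-4 replicates 1 and 2. Averages were 4.69 ± 2.76% in iTreg+PBS and 3.01 ± 1.70% in iTreg+IL-4 (SD, n = 2 each), and the conditions overlapped.

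By contrast, the start site of Tnfrsf18 itself was among the weaker ones by −log10 q. Its region at chr4:156026044-156026539 stood at 46.0% and 64.1% in the iTreg+PBS replicates and at 36.2% and 44.7% in the iTreg+IL-4 replicates. Averages were 55.1 ± 12.9% in iTreg+PBS and 40.4 ± 6.04% in iTreg+IL-4 (SD, n = 2 each). Both iTreg+IL-4 libraries stood above both iTreg+PBS libraries, without overlap, also when ranks were taken only among regions called in all 4 libraries (70.3% and 74.0% against 58.2% and 62.1%), but not by peak height. By height the region stood at 15.8% and 23.8% without IL-4 and at 12.1% and 16.0% with IL-4. That was above the start-site regions of Tnfrsf25 and Cd27 in every library. Of the 9 regions over a receptor start site, it was the only region to stand higher in both iTreg+IL-4 libraries by −log10 q. Of all regions called in all 4 libraries, 19.7% did so.

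The start site of Tnfrsf4, at chr4:156013387-156014336, stood at 11.5% and 17.1% in the iTreg+PBS replicates and at 13.0% and 12.4% in the iTreg+IL-4 replicates, and the conditions overlapped. Upstream of it, in an intron of the neighboring gene Sdf4, a region at chr4:156008086-156008910 stood at 4.52% and 12.5% without IL-4 and at 3.36% and 9.54% with IL-4. Another intronic region of Sdf4, at chr4:156004019-156004608, stood at 17.3% and 18.7% without IL-4 and at 14.1% and 15.1% with IL-4. The last of these did not overlap between conditions, but it did so when ranks were taken among regions called in all 4 libraries.

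The bases upstream of the Tnfrsf18 start site and the centre of the strong region are shown because the start site stood far below its neighbor in every library. Sequences here and below are from GRCm38 (mm10), 200 bases at the centre of a region on the forward strand or up to 250 bases upstream of the first RefSeq exon in the direction of the gene. Capitals mark matches, on either strand, to letters searched in all regions: those of the STAT6 type, AP-1, RUNX, GATA and NF-κB. Matches to different motifs may overlap.
Tnfrsf18 upstream, chr4:156026072-156026321: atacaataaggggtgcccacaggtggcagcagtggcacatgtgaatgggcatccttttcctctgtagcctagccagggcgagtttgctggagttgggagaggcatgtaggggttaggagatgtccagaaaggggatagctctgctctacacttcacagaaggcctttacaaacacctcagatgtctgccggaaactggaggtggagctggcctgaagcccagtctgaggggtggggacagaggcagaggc
Region between Tnfrsf4 and Tnfrsf18, chr4:156021964-156022163: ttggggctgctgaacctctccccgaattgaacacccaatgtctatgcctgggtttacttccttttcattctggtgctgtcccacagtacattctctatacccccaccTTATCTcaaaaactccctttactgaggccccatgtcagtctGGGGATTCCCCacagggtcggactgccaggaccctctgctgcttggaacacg

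No match was found in the Tnfrsf18 sequence. The strong region held a palindromic stretch that matched the NF-κB letters in both orientations and 1 GATA match (AGATAA), and NF-κB letters occurred in the centres of 4.28% of all 93503 regions on the assembled chromosomes and GATA letters in 7.86%. A match describes the letters and says nothing of binding.

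Tnfrsf9 encodes 4-1BB, a receptor induced on activated T cells, and has several start sites. Its outermost RefSeq start site, at 150920155 on chromosome 4, had no peak in any of the 4 libraries within 1 kb upstream to 500 bases downstream. The inner start site at 150925300 lay in a region called in all 4, at chr4:150924097-150925335, which stood at 8.95% and 17.5% in the iTreg+PBS replicates and at 7.60% and 13.8% in the iTreg+IL-4 replicates. A further region over the innermost start site, at chr4:150927505-150928169, stood at 22.4% and 42.0% without IL-4 and at 23.6% and 37.7% with IL-4. GENCODE also starts a transcript at 150914562, where a region at chr4:150914026-150914745 stood at 10.3% and 9.25% without IL-4 and at 10.9% and 9.78% with IL-4. All 3 regions overlapped between the conditions.

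The sequence at the outermost start site and the centre of the inner region are shown because the former is without a peak and the latter is the stronger of the regions over its RefSeq start sites.
Tnfrsf9 upstream of the outermost start site, chr4:150919905-150920154: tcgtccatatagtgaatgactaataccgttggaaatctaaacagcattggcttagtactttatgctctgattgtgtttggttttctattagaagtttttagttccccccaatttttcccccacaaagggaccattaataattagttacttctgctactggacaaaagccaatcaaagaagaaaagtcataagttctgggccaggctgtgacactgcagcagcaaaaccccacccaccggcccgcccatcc
Tnfrsf9 inner start-site region, chr4:150924616-150924815: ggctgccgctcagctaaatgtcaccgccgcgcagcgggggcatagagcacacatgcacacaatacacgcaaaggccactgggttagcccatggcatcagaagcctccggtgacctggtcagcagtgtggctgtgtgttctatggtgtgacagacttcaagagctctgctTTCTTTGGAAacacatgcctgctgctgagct

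The outer sequence had 43.2% G and C and no match, and the inner one had 56.5% G and C and 1 match of the STAT6 type (TTCNNNNGAA), letters found in 5.84% of all regions. Away from the RefSeq start sites of Tnfrsf9, the region with the best mean standing over the 4 libraries was at chr4:150964536-150965765, 37152 bases downstream of the nearest of them and over the start of the small nuclear RNA gene Gm23405. Its standing was 7.75% and 13.6% in the iTreg+PBS replicates and 6.15% and 10.4% in the iTreg+IL-4 replicates. In replicate 2 of both conditions, the region at the GENCODE start and that over the start site of the neighboring gene Park7 stood above it.

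The largest difference between the conditions among the 59 shared regions was also at Tnfrsf9, in a region at chr4:150951056-150951504, downstream of the gene and between genes. It was chosen for mention with its values known. It stood at 64.6% and 72.6% without IL-4 and at 44.9% and 42.0% with IL-4. Averages were 68.6 ± 5.65% in iTreg+PBS and 43.5 ± 2.04% in iTreg+IL-4 (SD, n = 2 each), a difference of -25.1 percentage points. The iTreg+IL-4 libraries stood higher without overlap by −log10 q, by height and among the shared regions alone, and −log10 q was 14.5 and 7.29 in iTreg+PBS and 28.2 and 30.0 in iTreg+IL-4.
Tnfrsf9 downstream region, chr4:150951180-150951379: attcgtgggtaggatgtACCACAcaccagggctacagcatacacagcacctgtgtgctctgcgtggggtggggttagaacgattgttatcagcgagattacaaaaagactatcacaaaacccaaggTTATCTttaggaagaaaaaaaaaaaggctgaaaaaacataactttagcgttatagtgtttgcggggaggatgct

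Its centre held 1 RUNX match (TGTGGT) and 1 GATA match, both on the reverse strand, and RUNX letters were present in 21.4% of all regions.

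Tnfrsf1b and Tnfrsf8 encode TNFR2, the receptor through which TNF acts on Tregs, and CD30, a receptor of activated lymphocytes. Both are transcribed from the reverse strand of chromosome 4, at 145212368 to 145246870 and 145267132 to 145315164, with 20261 bases and the lncRNA gene Gm36233 between them, and 6 regions lay in both windows. The best of these, in an intron of Gm36233 at chr4:145254265-145254988 and 7757 bases upstream of the Tnfrsf1b start site, stood at 6.39% and 11.3% in the iTreg+PBS replicates and at 5.08% and 6.38% in the iTreg+IL-4 replicates. Both libraries with IL-4 stood above both without, though the nearest values were nearly equal, and the pattern was not seen by height.
Region upstream of Tnfrsf1b, chr4:145254527-145254726: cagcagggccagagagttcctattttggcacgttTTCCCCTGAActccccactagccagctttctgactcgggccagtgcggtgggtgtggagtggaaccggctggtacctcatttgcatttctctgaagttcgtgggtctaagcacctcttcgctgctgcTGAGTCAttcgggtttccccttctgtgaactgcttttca

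It is shown as the strongest region whose centre held letters of the STAT6 type. The same 200 bases held an AP-1 match (TGANTCA), and AP-1 letters were present in 12.9% of all regions. Toward the end of the same stretch, a region at chr4:145266313-145266889 went the other way, with standings of 49.4% and 55.8% without IL-4 and of 70.6% and 58.5% with IL-4.

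The start site of Tnfrsf1b, at chr4:145246240-145247135, stood at 20.5% and 26.4% without IL-4 and at 19.5% and 21.1% with IL-4. That of Tnfrsf8, at chr4:145314994-145315548, stood at 13.1% and 21.2% without IL-4 and at 13.8% and 18.2% with IL-4. Conditions overlapped at both genes. Tnfrsf8 had the most regions of the 8 windows, 24: 11 were present throughout and 13 were absent from at least 1 list. At Tnfrsf1b, 14 of 18 regions were present throughout.

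The sequences upstream of Tnfrsf8 and at its intronic region called only without IL-4 are shown as the constant and the inconstant site of that gene.
Tnfrsf8 upstream, chr4:145315165-145315414: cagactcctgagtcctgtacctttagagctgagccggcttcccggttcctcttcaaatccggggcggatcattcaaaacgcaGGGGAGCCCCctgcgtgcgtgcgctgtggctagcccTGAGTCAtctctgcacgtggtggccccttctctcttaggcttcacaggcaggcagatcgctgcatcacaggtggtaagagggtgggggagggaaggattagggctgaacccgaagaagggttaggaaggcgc
Tnfrsf8 intronic region, chr4:145284820-145285019: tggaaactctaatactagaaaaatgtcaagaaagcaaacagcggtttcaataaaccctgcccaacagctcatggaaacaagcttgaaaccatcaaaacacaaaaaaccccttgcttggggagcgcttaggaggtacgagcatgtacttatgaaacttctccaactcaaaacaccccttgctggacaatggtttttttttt

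Upstream of Tnfrsf8 there was 1 NF-κB and 1 AP-1 match, in letters found in 4.51% and 7.81% of the 32851 promoters of RefSeq. The intronic region had no match.

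Tnfrsf25 and Fas encode the receptors with a death domain, DR3, which binds TL1A, and Fas, which triggers apoptosis when bound by Fas ligand. The start-site region of Tnfrsf25, at chr4:152115779-152116466, stood at 36.5% and 33.6% in the iTreg+PBS replicates and at 26.7% and 41.1% in the iTreg+IL-4 replicates. Its best other region lay in an intron of the neighboring gene Espn at chr4:152138141-152139191 and stood at 6.32% and 12.5% without IL-4 and at 7.93% and 10.4% with IL-4. Conditions overlapped in both.

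At Fas, the start-site region at chr19:34290060-34290891 was the steadiest of the 8 genes, with standings of 12.2% and 13.0% without IL-4 and of 10.5% and 13.0% with IL-4. The best other region, in an intron 8901 bases downstream of the start site at chr19:34299235-34299884, stood at 11.9% and 17.8% without IL-4 and at 7.26% and 12.8% with IL-4. A region 3321 bases upstream of the start site, at chr19:34287099-34287553, stood at 38.5% and 37.5% without IL-4 and at 28.8% and 25.9% with IL-4. By −log10 q only the upstream region did not overlap between conditions, and it overlapped when ranks were taken among regions called in all 4 libraries. The intronic region overlapped by −log10 q but not among those regions (19.2% and 21.0% without IL-4, 12.0% and 18.1% with IL-4), nor by height. Fas had the fewest regions, 8, and 4 of them were present throughout. The bases upstream of Fas are shown for that steady start site.
Fas upstream, chr19:34290409-34290646: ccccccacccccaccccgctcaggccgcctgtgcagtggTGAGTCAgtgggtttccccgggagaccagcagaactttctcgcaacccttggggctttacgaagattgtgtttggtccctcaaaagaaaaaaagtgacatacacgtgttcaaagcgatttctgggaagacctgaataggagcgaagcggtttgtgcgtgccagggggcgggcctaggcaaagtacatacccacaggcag

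They held 1 AP-1 match. Letters were also counted in 10 RefSeq promoters of 300 bases at the 8 genes (2 each for Tnfrsf9 and Tnfrsf25). These promoters did not cover every RefSeq start site and left out the inner Tnfrsf9 start site at 150925300. Of the 10, 3 held AP-1, 2 RUNX and 2 NF-κB letters, which were in 7.81%, 16.8% and 4.51% of all promoters. None held letters of the STAT6 type or GATA letters, which were in 6.95% and 11.2%. A control, the STAT6-type letters with a gap shorter by a base (TTCNNNGAA), was in 5 of the 10 and in 8.30% of all promoters, so nothing is read from counts over so few sequences.

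Cd27 encodes the receptor of CD70, which is present on naive T cells already before activation. Its start-site region at chr6:125236744-125237764 stood at 40.1% and 61.0% without IL-4 and at 48.8% and 46.3% with IL-4. The best region of its window belonged to a neighbor, the start site of Vamp1 at chr6:125215156-125216082, with standings of 7.94% and 9.98% without IL-4 and of 6.76% and 9.14% with IL-4. Of the 10 Cd27 regions, 7 were called in all 4 libraries. Of these 7, 3 stood higher in both iTreg+IL-4 libraries, against 19.7% of all regions called in all 4 libraries, a difference that was not tested. The region at chr6:125221975-125222862 did so by −log10 q, by height and among the shared regions alone. Its standings were 18.1% and 24.1% in iTreg+PBS and 16.1% and 16.4% in iTreg+IL-4.

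Over the 59 shared regions, 10 (16.9%) stood higher in both iTreg+IL-4 libraries than in both iTreg+PBS libraries, against 19.7% of all 47767 shared regions, and 2 (3.39%) stood lower, against 5.18%. Both shares of the receptor regions were below those of all shared regions. Of the 10, 5 also stood higher when ranks were taken among shared regions alone and 7 by height, and 3 did so by all measures: the region downstream of Tnfrsf9, the one downstream of Cd27 and the start site of Vps13d in the Tnfrsf1b window. A list with many weak peaks gives its strong peaks a higher standing, so ranks were also taken among the shared regions alone: 9 of the 59 (15.3%) then stood higher with IL-4 and 4 (6.78%) lower, against 14.3% and 12.7% of all shared regions. By peak height 10 stood higher and none lower, against 20.4% and 4.42%. In 50 of the 59 regions (84.7%), the mean standing was higher with IL-4, as it was in 73.3% of all shared regions.

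**Figure D3:**
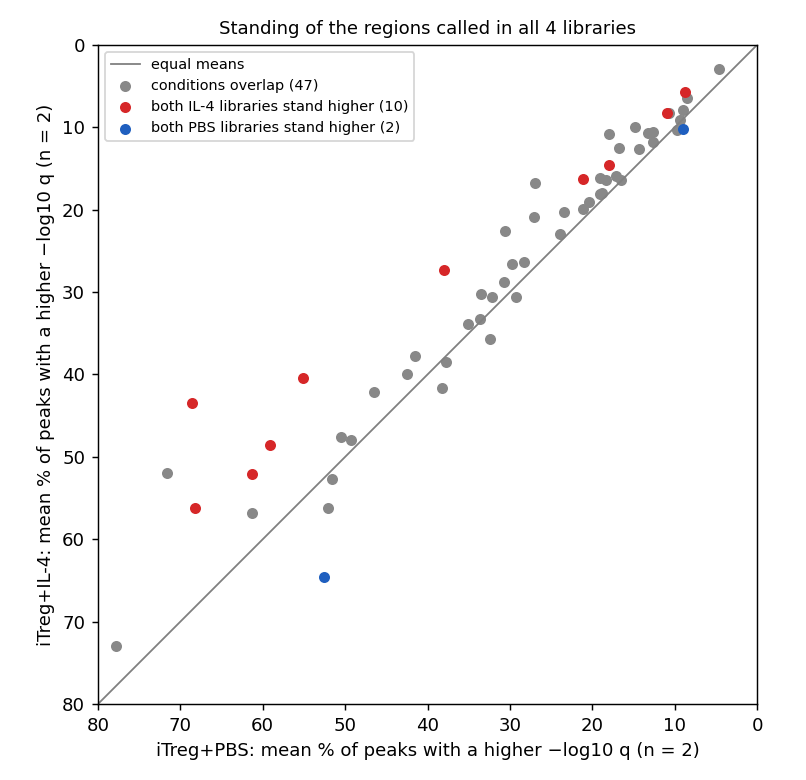
Mean standing of the 59 shared regions in iTreg+IL-4 (vertical axis) against iTreg+PBS (horizontal axis), each the mean of 2 libraries in percent of peaks with a higher −log10 q; the strongest regions are at the top right. Red points are the 10 regions in which both iTreg+IL-4 libraries stood higher, blue points the 2 in which both iTreg+PBS libraries did, gray points overlapped, and the point farthest above the line of equal means is the region downstream of Tnfrsf9.

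Median standing of the 59 regions was 20.5% and 31.9% in iTreg+PBS replicates 1 and 2, and 20.6% and 25.2% in iTreg+IL-4 replicates 1 and 2. Those of all shared regions were 31.3%, 42.5%, 30.7% and 35.5% in the same order, so the median of the receptor regions was the stronger in every library. By −log10 q few were among the very strongest, however: 2 of the 59 were in the upper 10% of the list in all 4 libraries, against 11.2% of all shared regions. By height more of them were, including the region upstream of Tnfrsf1b and that at the GENCODE start of Tnfrsf9. The share over all shared regions was not taken by height. The medians averaged 26.2 ± 8.11% in iTreg+PBS and 22.9 ± 3.24% in iTreg+IL-4 (SD, n = 2 each), and their difference of -3.27 percentage points was within the spread. It rested on iTreg+PBS replicate 2, without which it was 3.67. Per region, the median difference was -2.08 percentage points, against -2.05 for all shared regions.

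Bases inside peaks gave a similar account. Over the joined windows, which span 430.285 kb in 6 separate stretches, 47768 and 37516 bases lay inside peaks in the iTreg+PBS replicates, compared with 48110 and 41928 in the iTreg+IL-4 replicates. Averages were 42642 ± 7249 bases in iTreg+PBS and 45019 ± 4371 bases in iTreg+IL-4 (SD, n = 2 each), a difference of 2377 bases that was within the spread and became -2749 without iTreg+PBS replicate 2. Only Tnfrsf4, 1 of 8 genes, had more bases inside peaks in both iTreg+IL-4 libraries than in both iTreg+PBS libraries, against 16.5% of protein-coding genes, and none of the 8 had fewer, against 1.95%. At Tnfrsf4 the sums were 6378 and 5728 bases for iTreg+PBS, compared with 7205 and 6513 for iTreg+IL-4. The means were 6053 ± 460 and 6859 ± 489 bases (SD, n = 2 each), with p = 0.333 by the exact two-sided permutation test, the smallest it can give. At Fas, the only gene with a lower mean with IL-4, the sums were 3044 and 2887 bases without and 2959 and 2696 with IL-4.

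**Figure D4:**
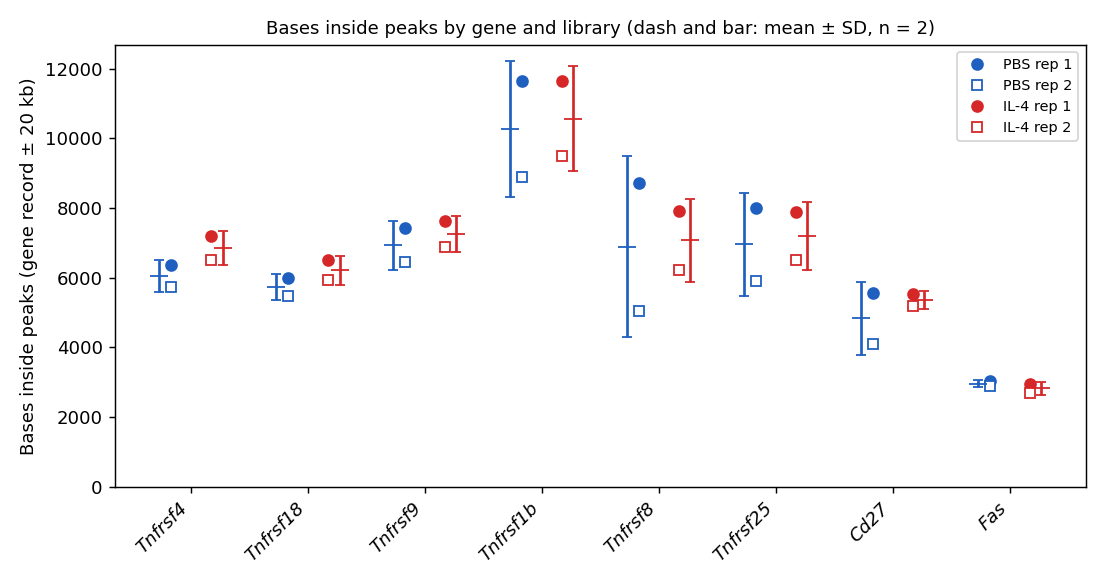
Bases inside peaks within the gene record and 20 kb on each side, by gene (horizontal axis) and library. Blue is iTreg+PBS and red iTreg+IL-4, filled circles are replicate 1 and open squares replicate 2, and dashes with bars are the mean ± SD (n = 2). Replicate 2 lies below replicate 1 in both conditions at every gene, and the conditions are apart only at Tnfrsf4.

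Genes of the ligands, the other receptors and the signaling proteins of the family were counted by the same rule. A start-site peak in all 4 libraries was present at 11 of 14 ligand genes, 14 of 17 other receptor genes and all 15 genes of adaptors, kinases and regulators. The share over all protein-coding genes was 58.2%. Among the ligands of the 8 receptors, Tnfsf18 (GITR ligand) and Tnfsf15 (TL1A) had no start-site peak in any library. Cd70 had one in 3 libraries, at 53.6% in iTreg+PBS replicate 1 and at 73.6% and 88.5% in the iTreg+IL-4 replicates.

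The remaining ligands had a start-site peak throughout. Lta, whose product lymphotoxin-α binds TNFR2, had the strongest, with standings of 3.29% and 8.94% without IL-4 and of 4.19% and 8.57% with IL-4. Fasl stood at 14.0% and 17.5% without and at 13.6% and 15.6% with IL-4. Those of Tnfsf4 (OX40 ligand) and Tnfsf9 (4-1BB ligand) ranged from 51.2% to 82.9% over the libraries. Of the 11 ligand start sites with a peak in all 4 libraries, 1 stood lower with IL-4 without overlap and 2 stood higher, against 5.18% and 19.7% of all shared regions. The lower one was Tnf, at 34.2% and 37.2% without IL-4 and at 40.1% and 48.1% with IL-4. Those that stood higher were Tnfsf8, the CD30 ligand, at 55.0% and 67.4% without IL-4 and at 42.9% and 37.0% with IL-4, and Tnfsf11 (RANK ligand), at 58.4% and 24.5% without IL-4 and at 17.1% and 19.5% with IL-4. By bases inside peaks, 1 of 14 ligand genes (Tnf) was lower in both iTreg+IL-4 libraries and 2 (Tnfsf14 and Tnfsf15) were higher, against 1.95% and 16.5% of protein-coding genes.

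Start sites of the TRAF genes, which encode the adaptors of these receptors, were mostly strong. Traf2 was the highest, at 0.976% and 2.23% without and 1.28% and 2.00% with IL-4, followed by Traf5 with standings from 4.87% to 6.88% and Traf6 from 7.17% to 10.0%. Traf1 was the weakest, from 44.1% to 70.8%. None of the start-site regions in these lists was called in a single condition. Elsewhere in the windows, regions called only with IL-4 were found at Tnfrsf1a, Tnfrsf11a, Ltb, Traf3 and Traf6, 1 at each, while 11.0% of all protein-coding windows held such a region. Their standings were from 65.0% to 96.7%. A region called only without IL-4, present in 3.35% of all protein-coding windows, lay in the shared windows of Tnf, Lta and Ltb, at 51.7% and 70.9%.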

How the data were processed

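ATAC-seq was performed on 2 iTreg+PBS and 2 iTreg+IL-4 libraries, grouped by their labels. The authors mapped reads to mm10 with Bowtie2 2.2.5 and called peaks in each library with MACS2 2.1.2 (versions from the submitters' processing notes, which also name bedtools 2.16.2); handling of duplicates and insertion offsets is not given in the sources used here, and its effect was not tested. The deposited −log10 q-value and the deposited height, a pileup signal, carry no column names and were identified from their values. Neither is scaled between libraries, so both served only for ranks within a list. Positions are printed counting from 1.

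Software was pandas 2.3.3, numpy 2.4.6 and scipy 1.17.1 under Python 3.11.15, pysam 0.24.0 and samtools 1.23.1 for sequences, and matplotlib 3.10.9. Merging and calling were tested on simulated lists. Gene records, start sites and promoters came from RefSeq (GRCm38.p6), and all 8 genes matched. The regions given in full were those over a start site, the best other region of each gene by mean standing, and those called in every library of one condition and none of the other; further regions were chosen after their values were seen. Ligands of the receptors, TRAF genes and pathway genes with a start-site peak in a single condition were named. The members and lists were chosen with earlier results of these data known. Alternatives changed the flank, the gene records, the overlap, the start-site window, the list lengths, the rank measure, the libraries used and the replicate block. Tests were exact two-sided permutation tests over libraries.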

Additional observations from a re-analysis of the deposited data

How the results depend on the processing

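Of 61 values under alternatives, 48 stayed near the value reported (counts within 1.5 times, differences within the spread of the libraries) and 13 moved. With the gene records alone, which hold fewer regions, 22 of 39 were called in all 4 libraries in place of 59 of 91. Without each library in turn the count was 59 to 66. The count called only with IL-4 was 0, but 1 in the upper 50% of each list (the region downstream of Tnfrsf9), 1 with flanks of 50 kb, and 1 to 7 without each library in turn, the most without iTreg+PBS replicate 1. The count called only without IL-4 was 1, but 0 in the upper 50% of each list, 2 with flanks of 50 kb, and 1 to 4 without each library in turn. Without a library, 1 library stands for its condition, so neither count could fall. The difference in median standing ranged from -8.89 to 3.67 percentage points without each library, the latter without iTreg+PBS replicate 2. In the upper 50% of each list it was -8.67, slightly beyond the spread of 8.24 under that setting. It was -0.366 with lists of 56645 peaks each and -0.518 among regions called in all 4 libraries. The last alternative was chosen after seeing the data. The difference in bases inside peaks ranged from -2749 to 7503 without each library. In the upper 50% of each list, 6 of 8 genes had a start-site peak in all 4 libraries, and Tnfrsf18 and Cd27 had one in 3. Blocked by replicate number, the differences were 2377 bases (342 and 4412 in the pairs) and -3.27 percentage points (0.177 and -6.71 in the pairs), as without it. Deviations of same-numbered libraries correlated over 47767 shared regions (Pearson's r = 0.452, Spearman's rho = 0.444), but no source says that a number marks a shared source, and with 2 numbers the pairing cannot be established. Depth is unknown, which limits every statement that a peak is missing.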

Other observations

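Beyond the windows used, 2 further regions were called in a single condition within 50 kb of a receptor gene, both downstream of Tnfrsf9. That at chr4:150988050-150988305 was called only without IL-4, with standings of 99.97% and 95.7%, and that at chr4:150995152-150995684, which is 1679 bases from a start site of Uts2, only with IL-4, with standings of 98.7% and 97.9%. All of these calls were among the weakest of their lists.

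Letters at the centres of the receptor regions were counted against all regions as a description. RUNX letters were present in 35.6% of the 59 shared regions and in 19.7% of all shared regions, and AP-1 letters in 15.3% and 10.7%. GATA letters were present in 10.2% and 7.14%, NF-κB letters in 8.47% and 4.51%, and letters of the STAT6 type in 6.78% and 5.27%. The control spacing TTCNNNGAA was present in 16.9% and 8.29%. In percentage points this gap was wider than for the STAT6 type, AP-1, GATA or NF-κB and narrower than for RUNX. As a ratio, the gap of the control was the widest of all, RUNX included. Over all 91 receptor regions the gaps differed: RUNX letters were present in 27.5%, against 21.4% of all regions, and letters of the STAT6 type in 5.49%, against 5.84%.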
